A study of Homo sapiens with 6 samples.

Results

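The genes of cholesterol and fatty acid synthesis were examined in LOX-IMVI cells, a human melanoma line, after knockdown of NFKBIZ, which codes for IκBζ, a co-regulator of transcription in the nucleus. A list of 35 genes was matched by symbol in the deposited tables, which list 47432 genes, and all 35 were found. They comprised 17 enzymes of the sterol arm and 8 enzymes of the fatty acid arm. The others were a group of 6 genes, regulators and a sterol carrier, and a group of 4 genes for sterol efflux and lysosomal export. Members are taken by name, and the groups are those of function. RNA-seq had been performed on 3 shCtrl and 3 shNFKBIZ libraries of cells grown in medium with fetal calf serum. Cells of both groups had been transduced with a lentiviral vector and selected with puromycin, and they differed in the insert, which was a control in shCtrl and a short hairpin RNA (shRNA) against NFKBIZ in shNFKBIZ. A single hairpin against NFKBIZ was used, so that effects of the hairpin other than through NFKBIZ cannot be told apart from those of the knockdown. No sterol, lipid or protein was measured in these files.

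Cells build cholesterol from acetyl-CoA through the mevalonate pathway, squalene and lanosterol, and build fatty acids from the same precursor through malonyl-CoA. Both routes are switched on by the sterol regulatory element-binding proteins (SREBPs), transcription factors that are made as membrane precursors, carried to the Golgi by SCAP for cleavage, and held back in the endoplasmic reticulum by INSIG proteins when sterols are plentiful. The SREBP encoded by SREBF2 acts mainly on sterol genes and that encoded by SREBF1 mainly on fatty acid genes. When sterols are plentiful, oxysterols activate the liver X receptors (LXRs), which induce sterol efflux genes such as ABCA1 and also SREBF1.

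SREBPs bind sterol elements and E-boxes, usually beside a box for the factor NF-Y, and these letters were looked up in the promoters of the members. RefSeq promoter windows of GRCh38.p14 (250 bases before to 50 after the start) were found for 31 of the 35 members, and none for FASN, SQLE, FDFT1 and ABCG1. In all, 3 motifs were searched on both strands, of which none contains another. These were CACNCCAC, the core of a sterol element, the E-box CACGTG, and CCAAT, the box of NF-Y. A gene with several windows was counted if any of them held the motif, and the shares over all genes include genes not expressed here. CCAAT was present in 22 of the 31 members (71.0%) against 39.7% of the 27305 genes with a window, and in 13 of 15 sterol arm enzymes. Among the members counted for CCAAT, HMGCS1, IDI1, ACACA, ACSS2, FADS2 and DHCR7 also have windows without it. CACNCCAC was present in 7 members (22.6%) against 7.05% of all genes, namely IDI1, SC5D, ACACA, SCD, SREBF2, INSIG1 and ABCA1. IDI1 and ACACA also have windows without it. CACGTG was present in 5 members (16.1%) against 8.77% of all genes. Of the 10 members with a window that were at least 2-fold lower in shNFKBIZ cells, 5 held CCAAT, 3 held CACNCCAC and 2 held CACGTG. No motif searched was found in the windows of CYP51A1, FADS1, NPC1 and SREBF1, which were also at least 2-fold lower, nor in those of INSIG2, ELOVL6 and PMVK. These are matches of letters, and binding was not measured. The bases upstream of both the RefSeq start and the first annotated base of the gene are shown 5′ to 3′ for 6 members that hold at least 1 of the motifs, with the matches in capitals (ATTGG is CCAAT on the other strand, and runs of 8 capitals are CACNCCAC on either strand).
HMGCS1: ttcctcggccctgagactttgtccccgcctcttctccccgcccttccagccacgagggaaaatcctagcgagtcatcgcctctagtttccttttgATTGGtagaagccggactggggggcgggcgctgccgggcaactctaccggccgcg
MSMO1: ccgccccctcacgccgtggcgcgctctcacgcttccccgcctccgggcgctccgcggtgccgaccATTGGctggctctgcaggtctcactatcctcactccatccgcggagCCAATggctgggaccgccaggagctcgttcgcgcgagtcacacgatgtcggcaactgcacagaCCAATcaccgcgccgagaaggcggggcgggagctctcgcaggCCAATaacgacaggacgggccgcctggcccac
SCD: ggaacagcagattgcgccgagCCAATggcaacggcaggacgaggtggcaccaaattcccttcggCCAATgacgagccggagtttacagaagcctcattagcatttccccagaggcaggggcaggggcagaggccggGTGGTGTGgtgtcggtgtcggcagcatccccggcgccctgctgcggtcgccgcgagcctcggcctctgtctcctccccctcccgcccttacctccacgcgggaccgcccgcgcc
INSIG1: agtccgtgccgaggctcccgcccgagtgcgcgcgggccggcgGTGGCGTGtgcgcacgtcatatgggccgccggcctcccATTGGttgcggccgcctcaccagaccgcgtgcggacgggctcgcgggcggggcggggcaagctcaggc
SREBF2: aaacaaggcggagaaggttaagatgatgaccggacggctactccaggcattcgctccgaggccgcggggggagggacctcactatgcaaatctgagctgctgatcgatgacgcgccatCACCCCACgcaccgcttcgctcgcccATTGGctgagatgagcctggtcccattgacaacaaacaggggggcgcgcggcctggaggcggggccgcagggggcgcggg
STARD4: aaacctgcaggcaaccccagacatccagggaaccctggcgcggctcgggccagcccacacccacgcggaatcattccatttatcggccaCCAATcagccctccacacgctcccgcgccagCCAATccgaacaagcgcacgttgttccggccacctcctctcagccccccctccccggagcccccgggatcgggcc

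They stand for a mevalonate enzyme (HMGCS1, chr5:43313513-43313662, minus strand), a demethylase of the late sterol pathway (MSMO1, chr4:165327419-165327666, plus strand), the stearoyl-CoA desaturase (SCD, chr10:100346983-100347232, plus strand), the SREBP retention factor (INSIG1, chr7:155297628-155297775, plus strand), an SREBP gene itself (SREBF2, chr22:41832855-41833078, plus strand) and a sterol carrier (STARD4, chr5:111512591-111512785, minus strand). The MSMO1 stretch holds CCAAT 4 times and no other motif searched. The stretches of SCD, INSIG1 and SREBF2 hold CACNCCAC together with CCAAT. The E-box of INSIG1 lies downstream of the stretch shown, 55 bases before the RefSeq start. The SREBF2 stretch also lies in an exon of the antisense gene SREBF2-AS1.

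The knockdown and the identity of the cells were looked at first. NFKBIZ exon reads numbered 1519, 1629 and 1674 in the shCtrl libraries and 474, 477 and 468 in the shNFKBIZ libraries, a log2 fold change of -1.78 (adjusted P 7.20e-17 by the edgeR quasi-likelihood test, SE 0.0581). The 6 libraries held 22264473 to 24624839 exon reads, and intron reads made up 7.16% to 7.46% of the gene reads in shCtrl and 7.63% to 8.15% in shNFKBIZ. LOX-IMVI is labelled as melanoma, but the melanocyte markers MLANA, SOX10 and S100B had no read, and the 8 melanocyte markers summed to 3.19 to 4.23 TPM (a level scaled to transcript length and to the library) in shCtrl and 1.79 to 2.62 TPM in shNFKBIZ. Of the 4 markers of dedifferentiated melanoma, AXL, SOX9 and EGFR were present and NGFR was at most 0.113 TPM. Their sum was 447 to 492 TPM in shCtrl and 602 to 614 TPM in shNFKBIZ, and its part in the results below was not tested. Markers of immune, epithelial and endothelial cells summed to at most 0.482, 0.358 and 0.102 TPM. In bulk RNA, a lower level per cell and fewer cells that express a gene cannot be told apart.

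The members were lower in shNFKBIZ cells in nearly all cases. Of 33 members that could be tested, 30 were lower at an adjusted P of at most 0.05, where 32.8% of all 13843 genes tested were lower. PMVK was the 1 member that was higher, where 32.5% of all genes were. TM7SF2 and ELOVL6 did not pass the test, and DHCR7 and ABCG1 had too few reads to be tested. In total 11 members were also at least 2-fold lower, against 5.12% of all genes, and no member was at least 2-fold higher, against 3.84% of all genes. The median log2 fold change of the 33 members was -0.73, and that of all genes was 0.00431. Of the 33 members, 30 were lower in CPM without overlap between the 3 libraries of each group. This held for 34.6% of all genes. CPM here is reads scaled to the library total and to the TMM factor of the library. For SC5D the gap was narrow, with 33.8 in shCtrl replicate 2 against 33.6 in shNFKBIZ replicate 3. Overlap was not counted with library totals alone. With library size alone as scaling, 29 members were lower and 1 higher at an adjusted P of at most 0.05. The share of higher genes among all genes called then moved from 49.7% to 60.8%. The P values rest on the spread between the libraries of a group, which the study describes as independent experiments.

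**Figure D1:**
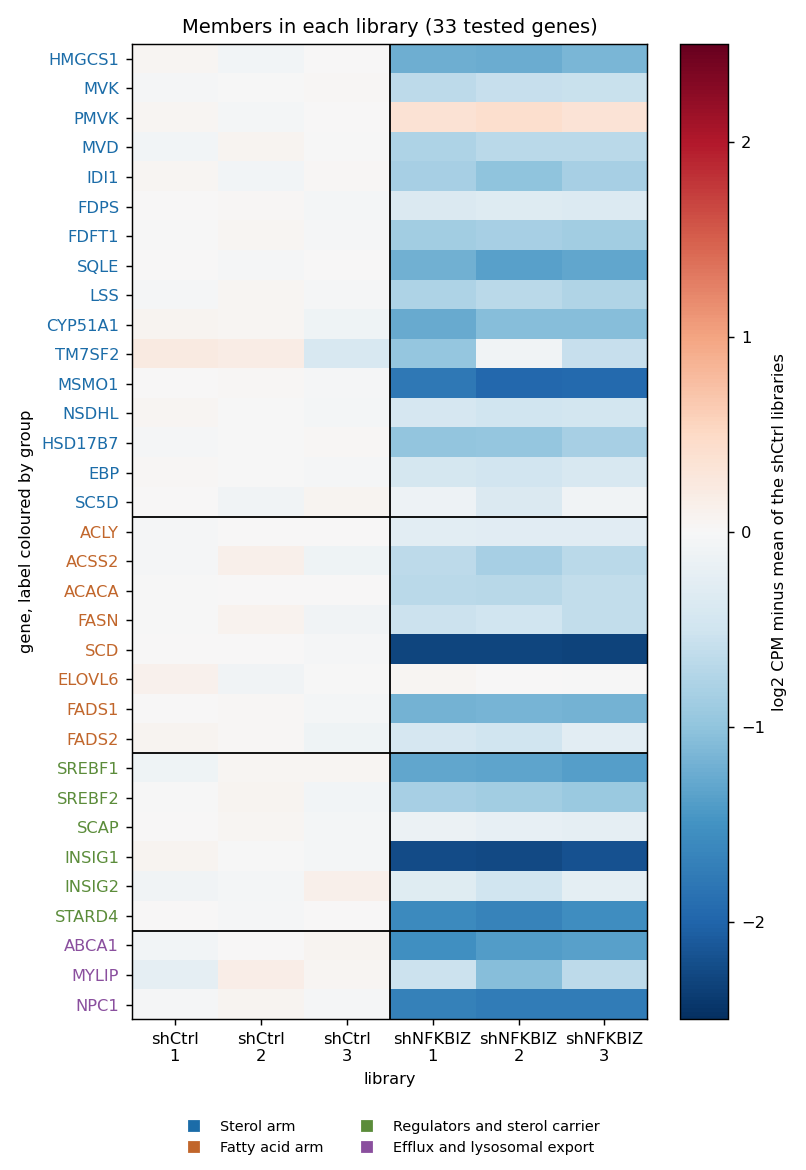
Heat map of the 33 tested members (rows, in pathway order, labels coloured by group) in the 6 libraries (columns), as log2 CPM minus the mean of the shCtrl libraries. The shNFKBIZ columns are blue for nearly every gene, darkest for SCD and INSIG1, with PMVK the exception in orange and ELOVL6 near white.

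In the sterol arm, 14 of 16 tested enzymes were lower, against 32.8% of all genes. PMVK was higher and TM7SF2 did not pass the test. The median log2 fold change was -0.72, and 4 enzymes were at least 2-fold lower, against 5.12% of all genes. The summed level of the arm was 1002.1 to 1013.8 TPM in shCtrl and 659 to 677 TPM in shNFKBIZ.

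At the entry, HMGCS1 (chromosome 5, 43287470 to 43313512, minus strand, hg38), which condenses acetyl-CoA units to HMG-CoA, was at 52.9, 48.4 and 52.8 TPM in shCtrl and at 23.2, 23.5 and 24.2 TPM in shNFKBIZ. All shNFKBIZ libraries were below all shCtrl libraries, and the log2 fold change was -1.20 (adjusted P 1.50e-15 by edgeR, SE 0.0467), a 2.30-fold fall. MVK (-0.60), MVD (-0.71), IDI1 (-0.89) and FDPS (-0.34), the kinase, decarboxylase, isomerase and prenyl synthase that lead from mevalonate to farnesyl diphosphate, were also lower on the log2 scale. PMVK, the kinase between MVK and MVD, went the other way, with 60.7, 56.7 and 60.7 TPM in shCtrl and 79.9, 85.9 and 78.5 TPM in shNFKBIZ. This was a rise of 0.37 on the log2 scale (adjusted P 3.86e-05 by edgeR, SE 0.0662), with no overlap between the groups.

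FDFT1, SQLE and LSS make squalene, its epoxide and lanosterol. SQLE, the squalene monooxygenase, was at 79.8, 78.0 and 82.3 TPM in shCtrl and at 36.5, 33.8 and 34.2 TPM in shNFKBIZ. Its log2 fold change of -1.28 (adjusted P 4.28e-16 by edgeR, SE 0.0463) was past the 2-fold threshold. FDFT1 fell from 178 ± 2.80 to 104 ± 3.51 TPM (SD, n = 3), a log2 fold change of -0.85, and LSS from 73.0 ± 1.85 to 46.7 ± 2.47 TPM, one of -0.73.

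Of the enzymes that turn lanosterol into cholesterol, MSMO1, a sterol demethylase, showed the greatest fall in the sterol arm. MSMO1 (chromosome 4, 165327667 to 165343164, plus strand) was at 57.6, 58.7 and 57.9 TPM in shCtrl and at 17.5, 16.0 and 15.8 TPM in shNFKBIZ. The log2 fold change was -1.90 (adjusted P 6.86e-17 by edgeR, SE 0.0618), a 3.73-fold fall, with a spread within groups of at most 0.946 TPM (SD). CYP51A1, the lanosterol demethylase (chromosome 7, 92084987 to 92134803, minus strand), was at 77.6, 76.2 and 71.4 TPM in shCtrl and at 32.6, 38.6 and 37.3 TPM in shNFKBIZ, a log2 fold change of -1.14 (SE 0.0570). CYP51A1 is uncertain as a locus, since 8.99% of its exon reads were unique and it overlaps AKAP9 and a gene without a name. Unique reads alone gave a log2 fold change of -1.09 (SE 0.114). HSD17B7 (-0.93), NSDHL (-0.46) and EBP (-0.44), a ketoreductase, a decarboxylating dehydrogenase and an isomerase, were lower to a lesser degree. Unique reads, which made up 79.8% of the exon reads of HSD17B7 and 52.7% of those of EBP, gave -0.92 and -0.46.

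The remaining enzymes of the late pathway were at the edge of what these libraries can show. SC5D, the lathosterol desaturase, was at 13.3, 12.4 and 14.2 TPM in shCtrl and at 12.7, 11.1 and 13.1 TPM in shNFKBIZ. The groups overlap in TPM, and its log2 fold change of -0.19 (adjusted P 0.0159 by edgeR, SE 0.0663) lost its call with library size alone (-0.10, adjusted P 0.172 by edgeR) or without shCtrl replicate 1 (-0.19), shCtrl replicate 3 (-0.16) or shNFKBIZ replicate 2 (-0.11). TM7SF2, a sterol reductase, had 19, 19 and 11 reads in shCtrl and 7, 15 and 10 in shNFKBIZ, and its log2 fold change of -0.62 (SE 0.345) did not pass the test (adjusted P 0.121 by edgeR). Without shNFKBIZ replicate 2 it was -0.94 and passed (adjusted P 0.0477 by edgeR), within a range of adjusted P over the alternatives from 0.0477 to 0.378. DHCR7, the last reductase of a route to cholesterol, was listed with 0 exon and 0 intron reads in all 6 libraries. A count of 0 allows up to 3 reads, or 0.122 to 0.135 CPM by library total alone, for counting error only. Whether the mapping bears on this 0 was not tested.

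**Figure D2:**
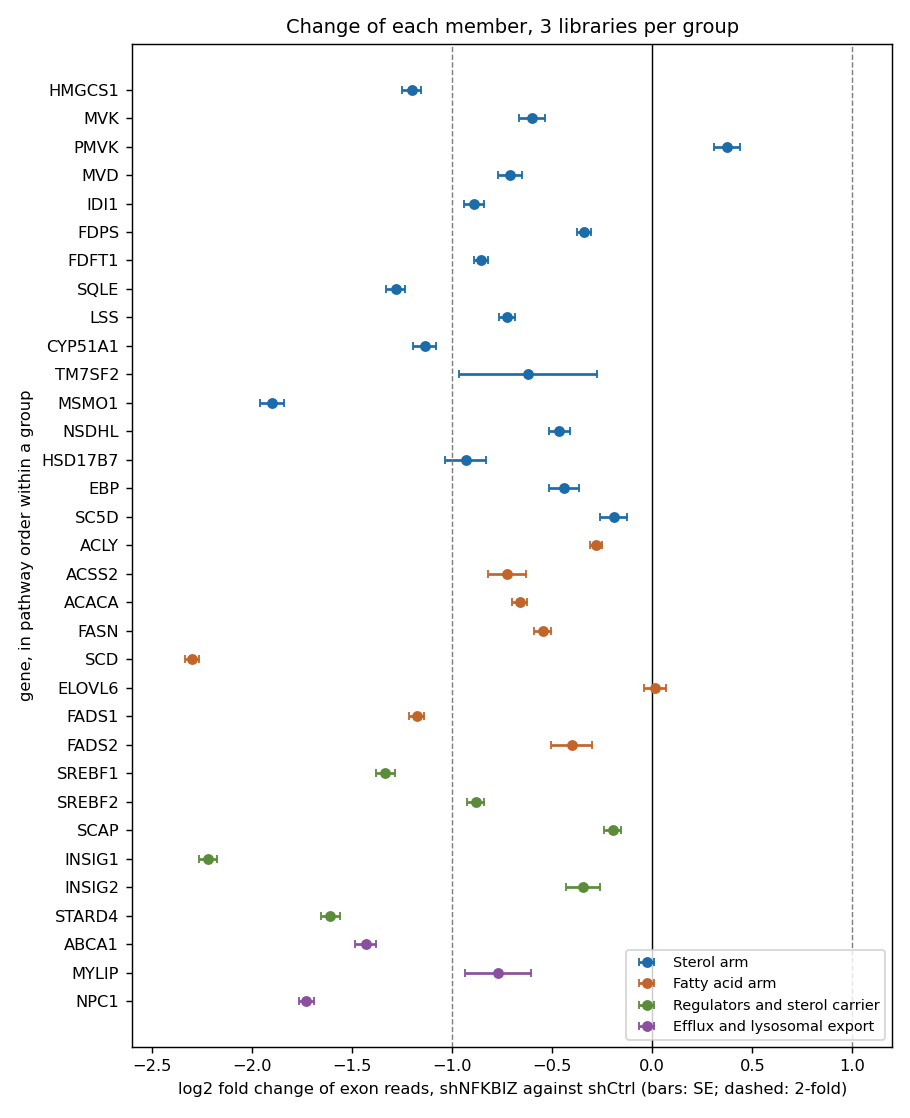
Log2 fold change of exon reads, shNFKBIZ against shCtrl (horizontal axis, bars are the SE, dashed lines mark 2-fold), for the 33 tested members in pathway order, coloured by group. Points lie left of 0 for all but PMVK at 0.37 and ELOVL6 at 0.014, and the wide bar belongs to TM7SF2, which had at most 19 reads per library.

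In the fatty acid arm, 7 of 8 enzymes were lower, against 32.8% of all genes, and ELOVL6 did not pass the test. The median log2 fold change of the arm was -0.60. The summed level went from 1559 to 1591 TPM in shCtrl to 875 to 923 TPM in shNFKBIZ, in which SCD has a large part. SCD, which introduces the double bond of oleic acid (chromosome 10, 100347233 to 100364826, plus strand), was at 579, 576 and 577 TPM in shCtrl and at 124, 128 and 121 TPM in shNFKBIZ. This was the largest change among the 33 tested members, a log2 fold change of -2.30 (adjusted P 8.11e-23 by edgeR, SE 0.0336) or a 4.92-fold fall. FADS1, the delta-5 desaturase of polyunsaturated fatty acids, was at 89.7, 90.6 and 89.0 TPM in shCtrl and at 41.5, 43.3 and 41.4 TPM in shNFKBIZ, again without overlap. On the log2 scale FADS1 fell by 1.18 (adjusted P 2.25e-17 by edgeR, SE 0.0359). FADS1 and FADS2 overlap each other on opposite strands, and FADS2 also overlaps FEN1, so that their reads can be assigned to either gene. FADS2, the delta-6 desaturase, was at a much lower level (3.10 ± 0.147 and 2.48 ± 0.186 TPM, SD, n = 3) and had a log2 fold change of -0.40 (SE 0.102).

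The enzymes that supply and build the saturated chain changed by less than 2-fold. ACLY, which makes cytosolic acetyl-CoA from citrate, fell from 473 ± 14.6 to 412 ± 7.12 TPM (SD, n = 3, log2 fold change -0.28), and ACSS2, which makes it from acetate, from 8.89 ± 0.628 to 5.70 ± 0.316 TPM (-0.73). ACACA, the acetyl-CoA carboxylase, fell from 43.1 ± 1.13 to 28.8 ± 0.475 TPM (-0.66), and FASN, the fatty acid synthase, from 358 ± 17.6 to 259.8 ± 13.5 TPM (-0.55). ELOVL6, which elongates palmitate and so stands between FASN and SCD, had 1026, 916 and 900 reads in shCtrl and 984, 963 and 952 in shNFKBIZ, so that the groups overlapped. The log2 fold change was 0.014 (adjusted P 0.830 by edgeR, SE 0.0549), and its sign turned without shCtrl replicate 2 (-0.035) and without shNFKBIZ replicate 1 (-0.00494).

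All 6 genes of the group of regulators, which includes the sterol carrier STARD4, were lower, against 32.8% of all genes. Their median log2 fold change was -1.11. Of the 6 genes, 3 were at least 2-fold lower (SREBF1, INSIG1 and STARD4), against 5.12% of all genes. SREBF1 (chromosome 17, 17810399 to 17837002, minus strand, overlapping RAI1) was at 52.7, 58.2 and 60.4 TPM in shCtrl and at 24.1, 24.8 and 23.1 TPM in shNFKBIZ. The groups did not overlap, at a log2 fold change of -1.33 (adjusted P 2.49e-16 by edgeR, SE 0.0465). SREBF2 fell from 64.0 ± 1.94 to 36.8 ± 1.49 TPM (SD, n = 3), a log2 fold change of -0.88 (SE 0.0428). SCAP, the escort of the precursors, was at 50.8, 51.8 and 50.3 TPM in shCtrl and at 48.1, 47.5 and 45.5 TPM in shNFKBIZ, a small change of -0.20 (SE 0.0418) on the log2 scale.

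The INSIG genes were both lower, by unlike amounts. INSIG1 (chromosome 7, 155297776 to 155310235, plus strand) was at 207, 195 and 196 TPM in shCtrl and at 44.3, 45.2 and 46.3 TPM in shNFKBIZ. This gave a log2 fold change of -2.22 (adjusted P 1.81e-20 by edgeR, SE 0.0434), a 4.66-fold fall and the next after that of SCD. INSIG2 was at 13.4, 13.7 and 16.2 TPM in shCtrl and at 12.3, 10.9 and 12.8 TPM in shNFKBIZ, a log2 fold change of -0.35 (SE 0.0866). The difference between both genes was not tested. STARD4, which carries sterol between membranes (chromosome 5, 111496033 to 111512590, minus strand), was at 55.9, 53.9 and 57.3 TPM in shCtrl and at 19.3, 18.7 and 19.8 TPM in shNFKBIZ. On the log2 scale STARD4 fell by 1.61 (adjusted P 1.65e-17 by edgeR, SE 0.0481).

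**Figure D3:**
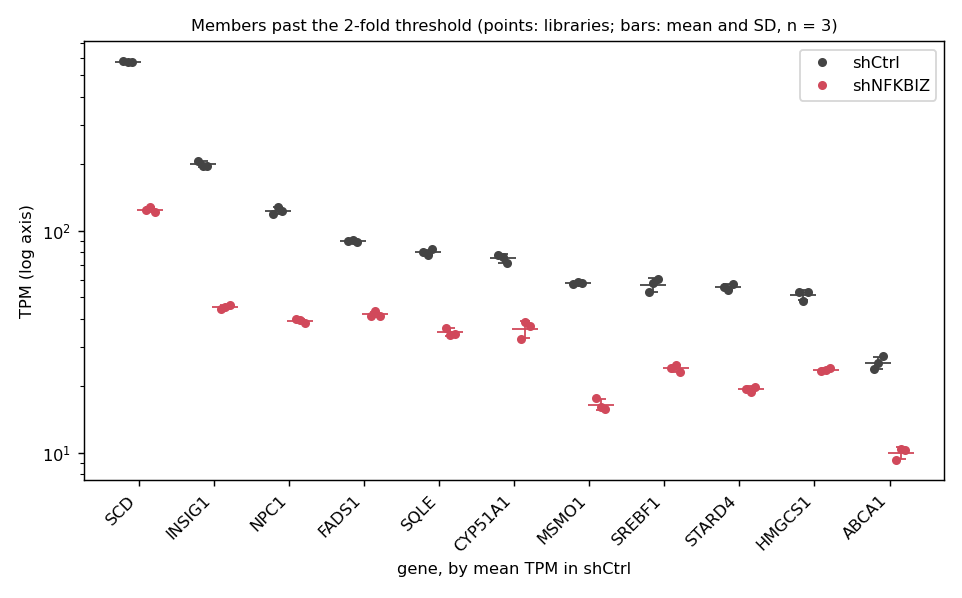
TPM of the 11 members past the 2-fold threshold in each library (points, log axis), with mean and SD over 3 libraries (bars), ordered by mean TPM in shCtrl. For every gene shown the shCtrl points lie above the shNFKBIZ points, from SCD at 576 to 579 against 121 to 128 TPM down to ABCA1 at 23.9 to 27.1 against 9.24 to 10.4 TPM.

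In the group of efflux and lysosomal export, in which MYLIP is counted though it moves no sterol, the 3 genes that could be tested were lower. Their median log2 fold change was -1.43, and 32.8% of all genes were lower. ABCA1, the cholesterol efflux pump and an LXR target (chromosome 9, 104781006 to 104928155, minus strand), was at 23.9, 25.3 and 27.1 TPM in shCtrl and at 9.24, 10.4 and 10.3 TPM in shNFKBIZ. All shNFKBIZ libraries were lower, with a log2 fold change of -1.43 (adjusted P 6.84e-16 by edgeR, SE 0.0531). NPC1, which exports cholesterol from lysosomes (chromosome 18, 23506184 to 23586506, minus strand), was at 119, 128 and 122 TPM in shCtrl and at 39.8, 39.7 and 38.5 TPM in shNFKBIZ. Its log2 fold change was -1.73 (adjusted P 1.61e-19 by edgeR, SE 0.0392), a 3.31-fold fall, and it overlaps RMC1. MYLIP, a ubiquitin ligase for lipoprotein receptors and also an LXR target, had 82, 112 and 95 reads in shCtrl and 65, 45 and 61 in shNFKBIZ, a log2 fold change of -0.77 (SE 0.165). ABCG1, a further efflux pump, had no exon read in any library and 2, 3 and 3 intron reads in shCtrl against 0, 0 and 1 in shNFKBIZ.

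ABCA1 and MYLIP, which LXRs induce, were thus lower in the same libraries as the enzymes that SREBPs induce. Across the 33 tested members, the log2 fold change had a Pearson r of -0.32 and a Spearman rho of -0.29 with the log2 level in shCtrl, as a description of genes that share their libraries.

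Intron reads, which come mostly from unspliced transcripts and were not counted as exon reads, gave a further readout of the same genes. Of 30 members with enough intron reads, 24 were lower, where 19.5% of 12119 genes tested were lower, and SCAP alone was higher, where 19.3% of genes were. The median log2 fold change of their intron reads was -0.86. The intron reads of SCD were 197, 213 and 186 in shCtrl and 31, 10 and 20 in shNFKBIZ, a log2 fold change of -3.37 (SE 0.179). Those of INSIG1 were 271, 353 and 281 in shCtrl and 55, 55 and 49 in shNFKBIZ, one of -2.59 (SE 0.118). Those of NPC1 were 727, 753 and 696 in shCtrl and 201, 209 and 191 in shNFKBIZ, one of -1.95 (SE 0.0718). In none of these 3 genes did the groups overlap. Intron reads of PMVK, NSDHL, ELOVL6, FADS2 and INSIG2 did not pass the test, with log2 fold changes from -0.22 to 0.16. The rise of SCAP intron reads, from 112, 145 and 135 to 170, 180 and 183 (log2 fold change 0.35, adjusted P 0.00766 by edgeR), was not called without shCtrl replicate 1. Across the 30 members, exon and intron log2 fold changes had a Pearson r of 0.89 and a Spearman rho of 0.90, again as a description of genes from the same libraries.

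Where exon and intron reads changed by different amounts, the difference was tested as an interaction. In 8 of 30 members the exon log2 fold change was above that of the introns, that is, intron reads fell further, where 13.1% of 11025 genes had such a difference. These were SCD (difference 1.09, SE 0.187), CYP51A1 (0.55), FDFT1 (0.45), SREBF1 (0.41), INSIG1 (0.39), FDPS (0.32), SREBF2 (0.27) and NPC1 (0.23). Without shNFKBIZ replicate 3 they were 4, and CYP51A1, INSIG1, SREBF2 and NPC1 were no longer called. CYP51A1, uncertain as a locus, had 63, 75 and 59 intron reads in shCtrl and 14, 29 and 23 in shNFKBIZ. FDPS overlaps RUSC1-AS1, FDFT1 a gene without a name, SREBF1 RAI1 and NPC1 RMC1, and mapping made no use of strand. How far reads of these genes enter the differences was not tested. In 3 members the exon change was below the intron change, against 15.7% of all genes, a share no higher than the background. MSMO1 had a difference of -0.76 (SE 0.197), with intron reads of 82, 57 and 65 in shCtrl and 32, 32 and 35 in shNFKBIZ. SCAP had one of -0.54 (SE 0.109) and ACACA one of -0.40 (SE 0.0633). The other 19 members did not pass this test.

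**Figure D4:**
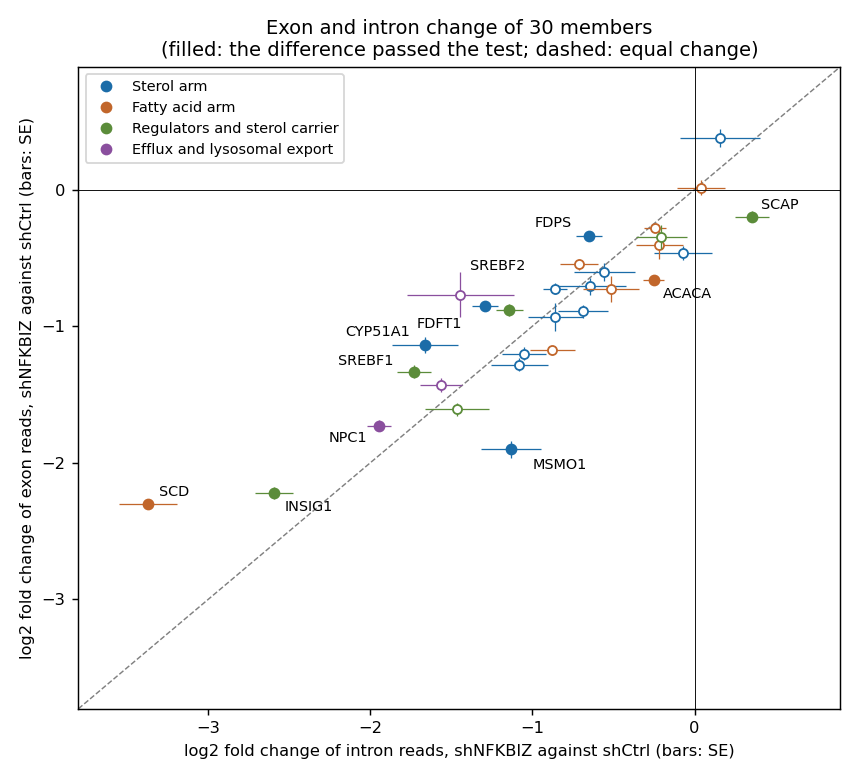
Log2 fold change of intron reads (horizontal) against that of exon reads (vertical), shNFKBIZ against shCtrl, for 30 members with both (bars are the SE, colours are the groups, dashed line is equal change). Filled points passed the interaction test, 8 above the line such as SCD at -3.37 and -2.30, and 3 below it, MSMO1, ACACA and SCAP.

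Other genes of lipid metabolism, from 6 further lists of 118 genes, changed in both directions. Of the 98 that could be tested, 51 were lower, 29 were higher and 18 did not pass the test, with a median log2 fold change of -0.14. With library size alone, 36 were lower and 37 higher, so that the balance of directions in these lists depended on the scaling. That of all 13843 genes did too, moving from 4543 lower and 4496 higher to 3651 lower and 5659 higher. In the main fit, the shares over all genes were 32.8% lower and 32.5% higher. The share of higher genes in these lists was thus near the background, and that of lower genes was above it. In total 6 of the 98 were at least 2-fold lower and 1 at least 2-fold higher, near the shares of all genes (5.12% and 3.84%).

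The isoprenoid branch, which leaves the sterol arm at farnesyl diphosphate for prenylation, dolichol and ubiquinone, had 4 genes lower and 4 higher of 11 tested, which is near the background, and none past the 2-fold threshold. The genes of sterol sensing and SREBP processing, such as the site proteases and the subunits of NF-Y, had 4 lower and 6 higher of 13, again none past the 2-fold threshold. Of the LXRs and the genes of sterol transport, 16 were lower and 5 higher of 25, with 1 at least 2-fold lower and 1 at least 2-fold higher. Beside each of these lists, the shares over all genes were 32.8% lower and 32.5% higher, and 5.12% and 3.84% past 2-fold. LPCAT3, a lysophospholipid acyltransferase and LXR target, fell from 43.3 ± 0.753 to 14.9 ± 0.537 TPM (SD, n = 3), a log2 fold change of -1.62 (SE 0.0549).

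Of the genes of sterol esters and lipid droplets, 6 were lower and 5 higher of 12, against 32.8% and 32.5% of all genes. MGLL, the monoacylglycerol lipase, fell from 15.4 ± 1.12 to 4.08 ± 0.415 TPM (SD, n = 3), a log2 fold change of -2.00 (SE 0.0754). Of the genes of fatty acid supply, elongation and activation, 14 were lower and 5 higher of 21, against the same shares of all genes. The acyl-CoA synthetases ACSL3 (70.0 ± 0.864 to 32.7 ± 1.13 TPM, log2 fold change -1.18) and ACSL1 (2.45 ± 0.378 to 1.04 ± 0.102 TPM, -1.31) and the elongase ELOVL7 (3.60 ± 0.486 to 1.58 ± 0.293 TPM, -1.27) were at least 2-fold lower. Of the genes of fatty acid oxidation, 7 were lower and 4 higher of 16, again against these shares. CPT1A, which admits long chains to mitochondria, fell from 39.4 ± 1.41 to 20.1 ± 0.992 TPM (log2 fold change -1.05).

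**Figure D5:**
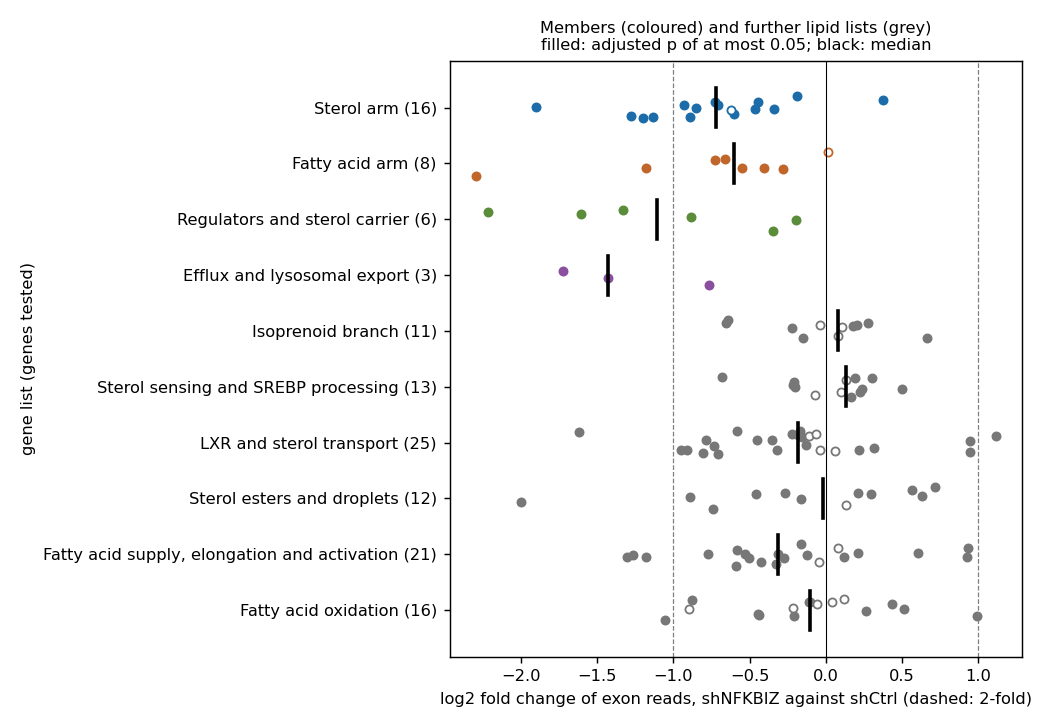
Log2 fold change of exon reads for each tested gene (points) in the 4 groups of members (coloured) and the 6 further lipid lists (grey), with the number tested in parentheses, medians as black bars and 2-fold as dashed lines. Medians of the member groups lie between -0.60 and -1.43, those of the further lists between -0.32 and 0.13.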

How the data were processed

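RNA-seq of 3 shCtrl and 3 shNFKBIZ libraries was used, with groups and replicate numbers from the sample titles. The authors mapped reads to hg38 in CLC Genomics Workbench, without use of strand, and deposited counts of exon, intron and gene reads per gene, as total and unique reads. Total reads include those that map to several places. TPM was computed anew from exon length and total exon reads, and differed from the deposited TPM by rounding only. The members and all gene lists were chosen with earlier results of these data known.

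Total exon reads were tested with edgeR 4.0.16 in R 4.3.3 (filterByExpr, TMM factors, glmQLFit with robust estimation, glmQLFTest, two-sided, Benjamini-Hochberg adjustment over 13843 genes). The SE is the log2 fold change divided by the square root of F. Genes were called changed up to an adjusted P of 0.05, and were past the 2-fold threshold if the fold change was also at least 2. Intron reads were fitted likewise, and exon against intron change as an interaction with library blocks. The exon fit and the interaction fit were run on simulated counts with 200 changed genes each. Of these, 100% and 95.5% were recovered, and 10 and 13 unchanged genes were called. The simulation had the same dispersion in all genes and no effect shared by exon and intron reads of a library. It does not give the error rates for these data. Named genes were NFKBIZ, the members, and genes of the further lists past the 2-fold threshold, at most 5 per list, of which 1 is not reported here. MITF, PMEL, TYR, TYRP1 and DCT complete the melanocyte list. Other settings tried were library size alone, RLE factors, no filter, at least 10 counts in every library, DESeq2 1.42.0, unique exon reads, total gene reads, a replicate block, a 1.5-fold threshold and leaving out each library. Replicates differed by more than sampling noise (1.69 to 4.18, chi-square over degrees of freedom).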

Additional observations from a re-analysis of the deposited data

How the results depend on the processing

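The 11 members past the 2-fold threshold were 11 in each of the 14 refits of exon reads, and 21 at a 1.5-fold threshold, where more can pass by construction. Over the 33 members and 14 settings, 454 values kept direction and side of the threshold, 4 lost the call (SC5D, adjusted P from 0.00174 to 0.172 over its alternatives), 1 gained it (TM7SF2) and 2 changed sign (ELOVL6, from -0.035 to 0.068 as each library was left out). With library size alone the medians were -0.63 (sterol arm), -0.51 (fatty acid arm), -1.02 (regulators and sterol carrier) and -1.34 (efflux). The median of all genes moved by a similar amount, from 0.00431 to 0.0937. With total gene reads the median of the fatty acid arm was -0.57 and that of the regulators and sterol carrier -1.14. The cause was not tested. Leaving out 1 library at a time gave medians from -0.80 to -0.69, from -0.63 to -0.58, from -1.14 to -1.08 and from -1.47 to -1.39 in the same order, 30 to 31 members changed, 23 to 25 changed in intron reads and 7 to 11 in exon against intron change, with 7 without shNFKBIZ replicate 3. Libraries with the same replicate number had low correlations of their deviations (0.0207, 0.0561 and 0.0288), which does not settle whether they were paired. The replicate block gave 31 members changed and 11 past the 2-fold threshold. Over all genes it gave 9303 called, against 9039 without it. The filter of at least 10 counts in all libraries removed TM7SF2. Depth limits TM7SF2, which had 7 to 19 reads per library.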
